A study of Mus musculus with 9 samples.

Results

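The histone genes of mouse Hepa1-6 cells, a hepatocellular carcinoma line, were followed under lefamulin and tiamulin. They were chosen by symbol among the protein-coding genes of the count table, as every H1f, H2ac, H2bc, H3c or H4c gene together with H2ax, H2az1, H2az2, H3f3a, H3f3b, Macroh2a1 and Macroh2a2. The rule took 76 of 56748 genes. Of these, 63 were replication-dependent histone genes (H1f1 to H1f5, H2ac, H2bc, H3c and H4c), 9 were replication-independent variants, and 4 were linker histones of the germ line (H1f6 to H1f9). RNA-Seq compared 3 groups of 3 libraries each. The control group is labelled as receiving no treatment, although the study's methods describe vehicle, and the treated groups received 37 µg/ml lefamulin or 37 µg/ml tiamulin for 2 days. Both drugs are semisynthetic pleuromutilins, antibiotics that bind the bacterial ribosome, and they share the pleuromutilin core but differ in the side chain. All groups were grown from a single established line, and no source used here says that libraries of a group came from separate cultures, so that the p-values below measure the spread between these libraries only.

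Histones package DNA into nucleosomes. Replication-dependent histone genes are transcribed mainly in S phase, and their mRNAs end in a conserved stem-loop, bound by SLBP, instead of a poly(A) tail. Replication-independent variants such as H3.3 and H2A.Z are made throughout the cell cycle from polyadenylated mRNAs and take over particular places in chromatin.

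Total counts per library lay between 15568887 and 18008105. A normalised read count below is CPM after TMM scaling, and FPKM is the deposited value per kilobase of gene length. Tiamulin library 2 stood apart: its deviation from the mean of its own group rose with the GC content of the gene. The Spearman correlation was 0.673 across 11009 genes, against -0.506 and -0.549 in the other tiamulin libraries. Deviations within a group offset one another, so these correlations say nothing of GC trends between groups. In controls 1 and 2 this correlation was 0.467 and -0.466, and in the other libraries it lay between -0.127 and 0.167. Values without tiamulin library 2 are therefore given where its removal changed a call of a histone gene. Of 10 hepatocyte-lineage markers, 7 passed the filter on low counts, Afp and Alb among them. Their summed level was 2508 to 2718 CPM in control, 2424 to 2556 CPM in lefamulin and 1962 to 2139 CPM in tiamulin libraries. Under lefamulin Alb, Hnf4a and Trf were called, 1 of them higher and 2 lower. Under tiamulin Afp, Alb and Apob were called, all lower. Apoa1, Ttr and Serpina1a stayed below 1 CPM in every library. Of 12 markers of blood, endothelial and stromal cells, 4 had no count and only Dcn and Pdgfra exceeded 1 CPM. The summed level of these 12 was 1509 to 1595 CPM in control, 1149 to 1202 CPM in lefamulin and 1064 to 1157 CPM in tiamulin libraries, nearly all of it Dcn, a proteoglycan of connective tissue. Without Dcn it was 25.3 to 30.7 CPM in control, 20.8 to 23.5 CPM in lefamulin and 30.1 to 34.0 CPM in tiamulin libraries. Dcn was called lower under both drugs. Pdgfra was called lower under lefamulin than under control, and higher under tiamulin than under lefamulin. Ptprc, the leukocyte marker CD45, was below 1 CPM in every library and was called higher under both drugs (log2 fold changes 2.45 and 2.12), but it entered the test through the drug libraries, where it is higher, and nothing is read from that call. The part of either marker list in the histone results was not tested.

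The libraries held very different amounts of the histone classes. Of 293052 histone counts over the 9 libraries, 8902 (3.04%) fell on the 63 replication-dependent genes and 284035 on the 9 variants. The study's methods do not say whether poly(A) RNA was selected. Its part in these shares was not tested, so they are not read as the histone mRNA content of the cells. Of the replication-dependent genes, 10 passed the filter on low counts, 38 were counted but too rarely to be tested, with at most 9 counts in a library, and 15 had no count anywhere. A gene with no count in a library could still account for up to 3 counts there, a limit set by counting error alone. The linker histone gene H1f2 with 4610 counts, and the H2B genes H2bc21 with 2427 and H2bc4 with 592, took 85.7% of the replication-dependent counts, and the other 60 genes shared 1273. The core histone H4, which has no variant gene in the rule, had 270 counts over its 12 genes. Replication-dependent genes gave 0.176% of the H3 counts, 0.181% of the H2A counts and 9.25% of the H1 counts. The clusters on chromosome 13 (53 genes) and chromosome 3 (10 genes) hold all 63. Their coding sequences are near-identical in many cases and the handling of reads that match several copies is not given in the sources used here, so that counts of single replication-dependent genes are uncertain.

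The stem-loop was searched for in the annotation, because it marks where the mRNA of S phase ends. A stem of 6 bases that starts with GG, pairs at 5 or more positions and closes a loop of 4 bases with the letters TNTN was sought within 100 bases after the stop codon of the longest coding transcript (GENCODE M21, GRCm38). It was found in 41 of 63 replication-dependent genes (65.1%), against 32 of 21623 other coding genes (0.148%). Among the variants it was found in H2ax alone, which is known to make both a stem-loop and a polyadenylated mRNA. The sites of H2ax and of some tested replication-dependent genes are printed as examples, with the paired bases in capitals, in GRCm38 coordinates. The tested genes H2bc6, H2bc9, H2ac6 and H1f4 had a site too, which is not printed. The search required the GG, a closing CC, the loop letters and at least 5 pairs, so likeness in these is not a result.
H2ax, chr9:44335235-44335260, plus strand: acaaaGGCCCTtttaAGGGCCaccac
H1f2, chr13:23739507-23739532, plus strand: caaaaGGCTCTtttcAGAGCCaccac
H1f3, chr13:23555782-23555807, plus strand: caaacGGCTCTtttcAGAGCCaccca
H3c15, chr3:96238480-96238505, minus strand: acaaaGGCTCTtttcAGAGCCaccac
H4c9, chr13:22040961-22040986, minus strand: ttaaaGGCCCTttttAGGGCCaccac
All 5 stems pair at each of the 6 positions. No match was found after the stop codon of H2bc21 or H2bc4, which says only that these letters are not in that window.

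The replication-dependent genes with many counts were mostly those whose annotated transcript runs far past the stem-loop. In 16 genes more than 200 annotated bases followed it, and their counts over the 9 libraries had a median of 52 and a maximum of 4610. In 25 genes at most 200 bases followed it, and the median was 2 and the maximum 31. The remaining 22 genes had no match, many because their annotated transcript ends at the stop codon, and had a median of 2 counts and a maximum of 2427, in H2bc21, whose transcript continues for 2192 bases after the stop codon. Longer transcripts also collect more reads: the median transcript length was 1410.5 bases in the first set and 508 in the second, and the part of length in this difference was not tested. The H1f2 transcript continued for 840 bases past its stem-loop and that of H1f3 for 4884.

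**Figure D1:**
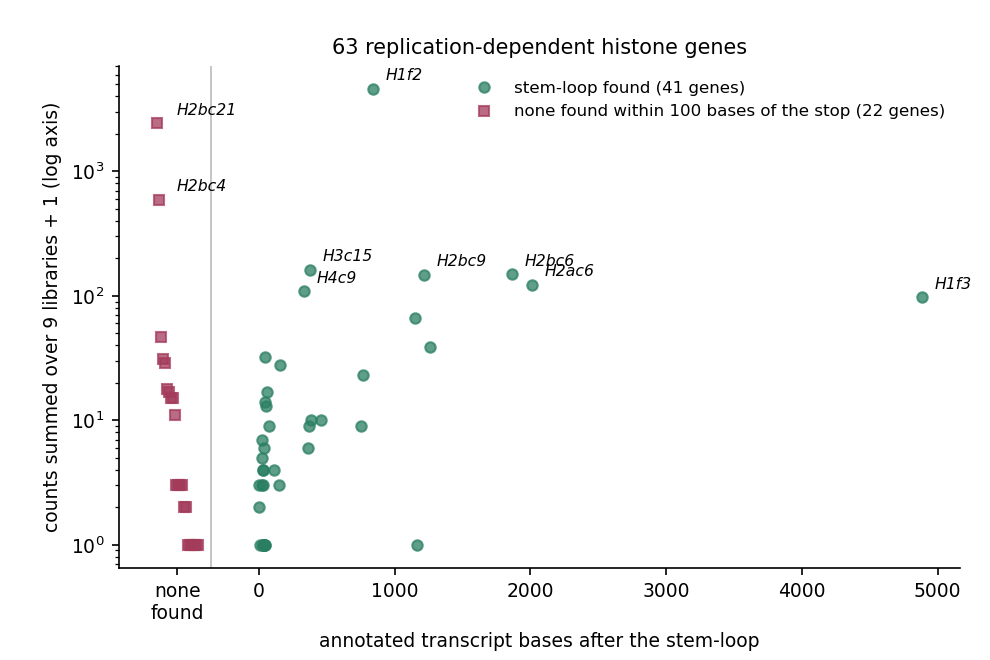
Each point is a replication-dependent histone gene, with its counts summed over 9 libraries plus 1 on a log axis against the annotated transcript bases after its stem-loop (circles), or at the left where no stem-loop was found (squares, spread sideways for visibility only). Genes with 90 or more counts are named. Of the 9 named, 7 carry a stem-loop followed by more than 200 annotated bases.

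The stretch of 250 bases before the start site differed between the classes as well. The CCAAT box, read as CCAAT on either strand, occurred in 82.5% of the 57 replication-dependent genes with an entry in the RefSeq table of GRCm38.p6, in 4 of 8 variants and in 34.5% of all 27025 entries. The TATA motif, read as TATAAA on either strand, occurred in 49.1% of the replication-dependent genes, 12.5% of the variants and 3504 of all 27025 entries. The stretches of H2az2 (an H2A.Z gene that was lower under both drugs), H1f0 (the variant that was higher under lefamulin) and H1f2 (the replication-dependent gene with the most counts) are printed with matches to either motif in capitals.
H2az2, chr11:6444444-6444693, minus strand: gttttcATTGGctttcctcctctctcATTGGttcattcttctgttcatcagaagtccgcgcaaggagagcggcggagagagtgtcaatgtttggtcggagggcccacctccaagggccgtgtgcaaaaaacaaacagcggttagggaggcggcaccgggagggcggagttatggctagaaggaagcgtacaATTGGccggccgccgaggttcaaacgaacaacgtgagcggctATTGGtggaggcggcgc
H1f0, chr15:79027962-79028211, plus strand: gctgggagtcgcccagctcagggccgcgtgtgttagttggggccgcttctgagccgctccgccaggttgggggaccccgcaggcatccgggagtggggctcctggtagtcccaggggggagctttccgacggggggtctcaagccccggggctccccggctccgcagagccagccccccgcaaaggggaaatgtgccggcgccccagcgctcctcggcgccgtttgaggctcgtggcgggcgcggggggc
H1f2, chr13:23738557-23738806, plus strand: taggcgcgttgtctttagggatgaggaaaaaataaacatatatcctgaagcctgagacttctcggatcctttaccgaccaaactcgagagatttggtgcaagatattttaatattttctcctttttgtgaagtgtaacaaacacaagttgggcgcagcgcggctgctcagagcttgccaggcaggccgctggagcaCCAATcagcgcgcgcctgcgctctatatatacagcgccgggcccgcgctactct
H2az2 held 4 CCAAT matches, H1f2 held 1 and H1f0 held none. A match is a description of the letters and not a site shown to be used. H2ax, H2bc21 and H2bc4 are not in the table.

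Compared per length, in control libraries, 7 of the 9 variants stood above every replication-dependent gene. H3f3b, which codes for H3.3, had 299 ± 7.35 FPKM (SD, n = 3). H2az1, which codes for H2A.Z, had 194 ± 3.06 FPKM, and H1f0, the linker histone of resting and differentiated cells, had 134 ± 2.84 FPKM. H3f3a, the other H3.3 gene, followed with 66.6 ± 2.18 FPKM. Then came H2ax, the variant phosphorylated at DNA breaks, at 38.0 ± 7.20 FPKM, Macroh2a1, a variant with a large non-histone domain, at 25.8 ± 1.36 FPKM and H2az2 at 24.4 ± 0.269 FPKM, with the last 2 within about 1 SD of each other. H1f10, a linker variant, and H1f2 had means of 18.9 FPKM each and could not be ordered. H2bc21 had 6.98 ± 0.249 FPKM and H2bc4 3.71 ± 0.345 FPKM, and each other replication-dependent gene that was tested stayed below 2 FPKM in the group means. Macroh2a2 had 35 counts in all, was not tested and overlaps Aifm2 on the opposite strand. The part of poly(A) selection and of the annotated gene length in this order was not tested.

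**Figure D2:**
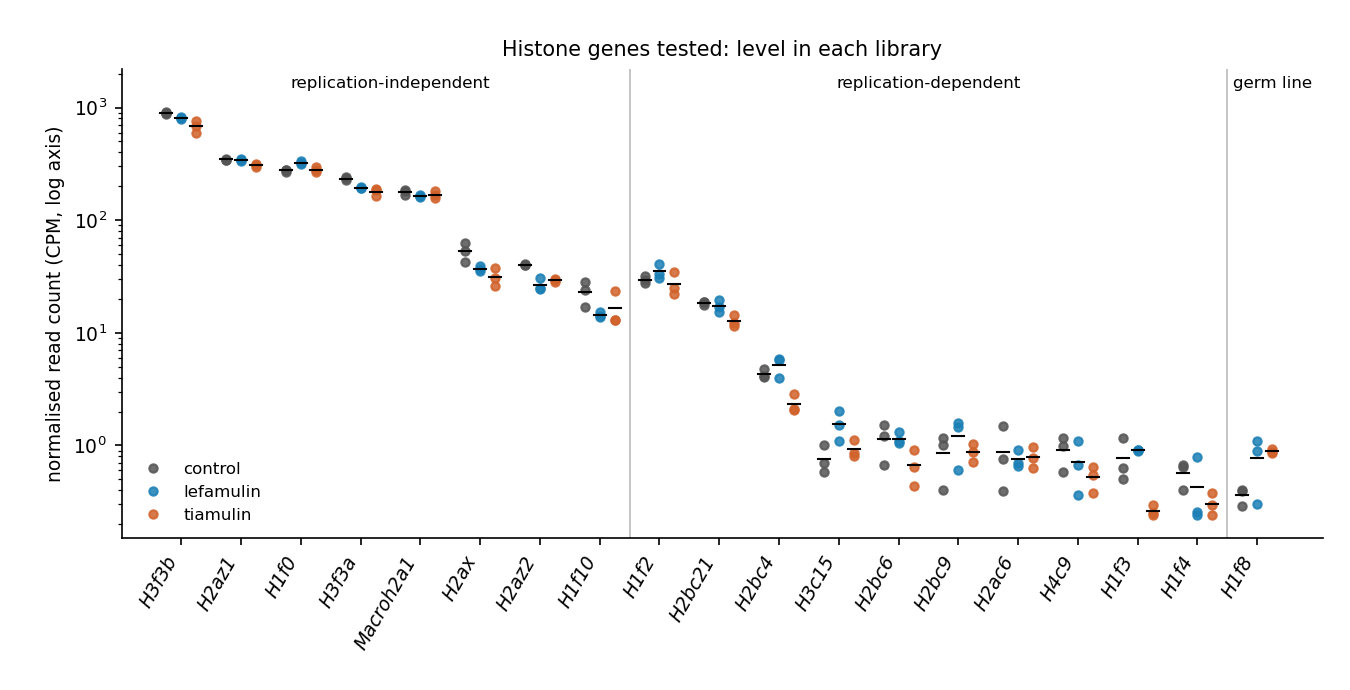
Normalised read count (CPM, log axis) of the 19 histone genes that were tested, by library (points, 3 per group) with the group mean (bar). Levels are read within a gene, since CPM does not correct for length. The tiamulin points of the variants H3f3b, H3f3a and H2az1 and of H2bc21, H2bc4 and H1f3 lie below all control and lefamulin points. H1f3 passed the filter on low counts through those other groups.

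Lefamulin against control asked which histone mRNAs moved under the approved drug. Of the 19 histone genes tested, 1 was higher (H1f0) and 3 were lower (H3f3a, H2ax and H2az2) at an adjusted p below 0.05. Over all 14510 genes tested, 7.09% were higher and 6.0% lower. No histone gene passed the further threshold of an absolute log2 fold change above 1, which 1.51% of all genes passed. The count of 4 histone genes fell to 1 without control 3 and to 2 without lefamulin 1 or 3, and it was 6 without tiamulin 2. Adjusted p-values below come from the quasi-likelihood test of edgeR, adjusted by Benjamini-Hochberg over all genes. In these bulk libraries, fewer cells in S phase and less histone mRNA per cell cannot be told apart.

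H1f0 had normalised read counts of 281, 270 and 279 in control and 337, 312 and 323 in lefamulin libraries. Every lefamulin library lay above every control. The log2 fold change was 0.23 (SE 0.055, edgeR adjusted p = 0.0133), and the adjusted p rose to at most 0.0739 without control 2 or 3 or lefamulin 1 or 3. H2az2 had 40.5, 39.7 and 39.8 in control and 30.7, 25.1 and 24.6 in lefamulin libraries. All lefamulin values were lower, by 0.58 on the log2 scale (log2 fold change -0.58, SE 0.090, edgeR adjusted p = 0.00075), and the call held on leaving out each library in turn. H3f3a had 226, 237 and 241 in control and 194, 193 and 195 in lefamulin libraries, which again did not overlap. Its log2 fold change was -0.27 (SE 0.061, edgeR adjusted p = 0.00895), and only leaving out control 3 lost the call (0.0540). Reads of H3f3a can be shared with its processed copies.

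H2ax ranged more widely between libraries. It had 62.4, 42.4 and 53.8 in control and 35.5, 36.6 and 39.0 in lefamulin libraries. The groups did not overlap, and the log2 fold change was -0.51 (SE 0.139, edgeR adjusted p = 0.0269). The call was lost without control 1 or 3 or any lefamulin library, with an adjusted p of at most 0.125, and with limma on log2 FPKM, with an adjusted p of at most 0.0808. The H2ax transcript has a GC content of 62.3%, above the median of 49.2% over genes tested, and its control values were ordered as the GC trends of those libraries. With offsets for GC content and length it was still lower (log2 fold change -0.47, edgeR adjusted p = 0.000634).

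The other variants did not pass the test under lefamulin. H3f3b had 873, 916 and 893 in control and 824, 799 and 800 in lefamulin libraries, with a log2 fold change of -0.15 (95% interval -0.30 to 0.0052, edgeR adjusted p = 0.200), and passed with GC and length offsets (5.43e-05) and without tiamulin 2 (0.00423). H2az1, with 353, 342 and 345 in control and 339, 339 and 349 in lefamulin libraries, overlapped between the groups and had a log2 fold change of -0.018 (95% interval -0.12 to 0.086), and passed with GC and length offsets and without tiamulin 2 together (edgeR adjusted p = 0.0201). Macroh2a1, with 184, 166 and 180 in control and 162, 163 and 168 in lefamulin libraries, overlapped as well (log2 fold change -0.10, 95% interval -0.24 to 0.032), and passed with GC and length offsets (-0.11, adjusted p = 0.0483). H1f10, with a transcript GC content of 71.3%, had 28.4, 16.9 and 24.1 in control and 15.4, 14 and 13.7 in lefamulin libraries. All lefamulin values of H1f10 were lower, and the log2 fold change of -0.69 (SE 0.235, edgeR adjusted p = 0.0788) passed with GC and length offsets (-0.47, adjusted p = 0.00866) and without tiamulin 2 (adjusted p = 0.0034). H1f10 overlaps the noncoding gene Gm5577 on the opposite strand, and whether the counting used strand is not given in the sources used here.

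None of the 10 replication-dependent genes tested was called under lefamulin by edgeR, where 1 had an unadjusted p below 0.05, nor by DESeq2. Of all 14510 genes tested, 1900 were called by edgeR and 3949 had an unadjusted p below 0.05. Their median log2 fold change was 0.14, against -0.0018 over all genes tested, and without control 3 it was -0.032. H1f2 had 29.4, 27.6 and 31.8 in control and 33.5, 31.0 and 40.8 in lefamulin libraries, which overlapped (log2 fold change 0.25, 95% interval -0.069 to 0.56). H3c15, an H3 gene, was the gene with the low unadjusted p. Its counts were 10, 12 and 18 in control and 17, 25 and 33 in lefamulin libraries, with a log2 fold change of 1.01 (SE 0.354, edgeR adjusted p = 0.0765).

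Tiamulin against control asked the same of the veterinary drug. Of the 19 histone genes tested, 8 were lower, 5 variants (H3f3a, H3f3b, H2ax, H2az1 and H2az2) and 3 replication-dependent genes (H2bc21, H2bc4 and H1f3). Over all genes tested, 7.34% were lower. No histone gene was called higher by edgeR, against 9.08% of all genes, nor by DESeq2. H1f8 alone was higher at an unadjusted p below 0.05 by edgeR. It entered the test through the drug libraries, where it is higher, and nothing is read from that p-value. H1f3 alone also passed the threshold of an absolute log2 fold change above 1, which 1.78% of all genes passed. It entered the test through the groups where it is high, and nothing is read from this or from its place among the 8. Without control 2 the count of histone genes called was 5, and without tiamulin library 2 it was 8.

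Both H3.3 genes were lower. H3f3b had 692, 601 and 767 in tiamulin libraries, all below the controls, with a log2 fold change of -0.38 (SE 0.071, edgeR adjusted p = 0.00202). H3f3a had 184, 163 and 188, again all below the controls, with a log2 fold change of -0.39 (SE 0.062, edgeR adjusted p = 0.000544). Tiamulin library 2 was the lowest of its group for both genes, whose transcripts have GC contents of 43.4% and 43.2%, and without it the log2 fold changes were -0.29 and -0.33.

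The H2A.X and H2A.Z genes were lower too. H2ax had 25.9, 37.8 and 31.0 in tiamulin libraries, all below the lowest control, with a log2 fold change of -0.74 (SE 0.141, edgeR adjusted p = 0.00243). H2az2 had 30.1, 28.0 and 29.4, which did not overlap with control, and a log2 fold change of -0.45 (SE 0.090, edgeR adjusted p = 0.00303). The calls of H2az2 and H2ax held on leaving out each library in turn. H2az1 had 353, 342 and 345 in control and 314, 300 and 308 in tiamulin libraries. The difference of H2az1 was small, with a log2 fold change of -0.17 (SE 0.049, edgeR adjusted p = 0.0239), and it was lost without control 1, 2 or 3 or tiamulin 3, with an adjusted p of at most 0.0896, and with 2 groups alone or no filter on low counts.

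H1f0, Macroh2a1 and H1f10 did not pass. H1f0 had 267, 295 and 282 in tiamulin libraries, which overlapped with control, and a log2 fold change of 0.024 (95% interval -0.094 to 0.14). Macroh2a1 had 166, 182 and 159 and a log2 fold change of -0.065 (95% interval -0.20 to 0.071), and passed with GC and length offsets and without tiamulin 2 together (edgeR adjusted p = 0.0269). H1f10 had 13, 23.7 and 13.1 in tiamulin libraries, the high value being that of library 2, with a log2 fold change of -0.48 (95% interval -0.99 to 0.027). Without that library the log2 fold change of H1f10 was -0.83 and passed, as it did with GC and length offsets and all libraries (-0.43, edgeR adjusted p = 0.0110).

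Among the replication-dependent genes, the H2B genes H2bc21 and H2bc4, whose products are core histones, were lower under tiamulin. H2bc21 had 17.6, 18.7 and 18.8 in control, 15.2, 17 and 19.6 in lefamulin and 11.4, 12.2 and 14.2 in tiamulin libraries. All tiamulin values lay below the others, and the log2 fold change against control was -0.54 (SE 0.117, edgeR adjusted p = 0.00546), a call that held on leaving out each library in turn. H2bc4 had 4.04, 4.77 and 4.13 in control, 5.69, 3.98 and 5.82 in lefamulin and 2.07, 2.87 and 2.12 in tiamulin libraries. The tiamulin values were again the lowest, with a log2 fold change against control of -0.87 (SE 0.212, edgeR adjusted p = 0.0111), and only leaving out control 2 lost the call (0.0503).

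H1f3, a linker histone gene of S phase, had few reads. Its counts were 11, 20 and 9 in control, 14, 15 and 15 in lefamulin and 4, 4 and 5 in tiamulin libraries. No tiamulin library reached the lowest control, and the log2 fold change was -1.51 (SE 0.474, edgeR adjusted p = 0.0418). It passed the filter on low counts through the other groups, and the call was lost on leaving out each library in turn other than control 3, with an adjusted p of at most 0.203, and without a filter on low counts (0.0845). Without tiamulin 2 the log2 fold change was still -1.48 (edgeR adjusted p = 0.0808), and against lefamulin it was -1.72 (0.0743). DESeq2 and limma gave no adjusted p for H1f3.

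The other 7 replication-dependent genes tested were not called. H1f2, the gene with the most counts, had 22, 25 and 34.8 in tiamulin libraries, below and above the controls, with a log2 fold change of -0.12 (95% interval -0.44 to 0.20). Without tiamulin 1 the log2 fold change of H1f2 was 0.017. H3c15, with 14, 13 and 19 counts in tiamulin libraries, overlapped with control (log2 fold change 0.28, 95% interval -0.52 to 1.09). H2bc6 had 1.21, 1.51 and 0.67 in control, 1.09, 1.33 and 1.04 in lefamulin and 0.91, 0.44 and 0.65 in tiamulin libraries, again overlapping with control (log2 fold change -0.75, 95% interval -1.61 to 0.10). The remaining values lay between -0.90 for H1f4 and 0.021 for H2bc9, and the counts of H2bc6 and H1f4 are uncertain because these genes overlap on the same strand. Over the 10 genes the median log2 fold change was -0.65 and 8 were below 0, against a median of 0.0034 over all genes tested, which describes the genes that passed the filter and not all 63. The median was -0.33 with at least 10 counts required in every library and -0.52 without tiamulin 2. H1f4, with 4, 6 and 5 counts in tiamulin libraries, and H1f3 passed the filter through libraries of the other groups. With control and tiamulin alone 8 genes were tested and the median was -0.35. The value of -0.65 thus depends on which genes passed the filter, and nothing further is read from it.

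**Figure D3:**
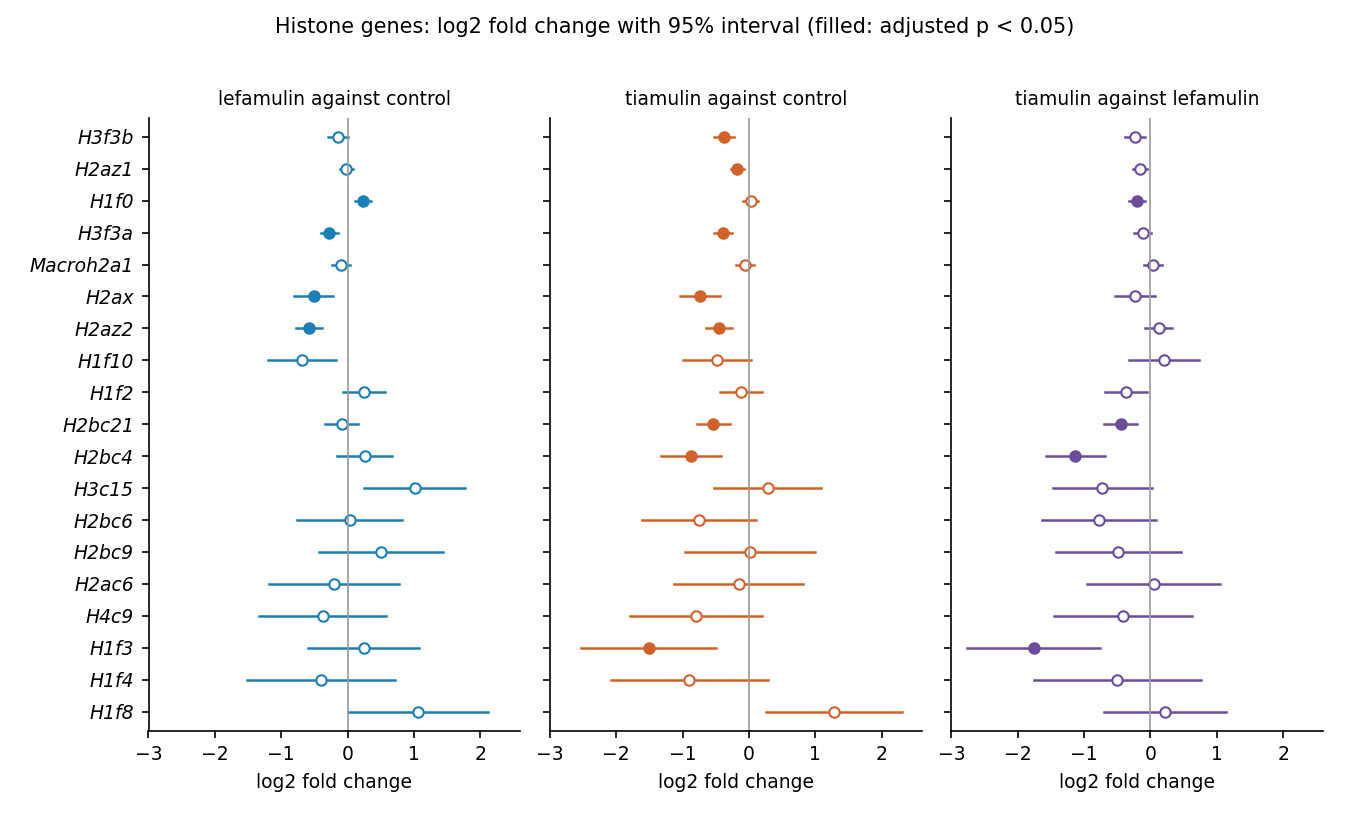
Log2 fold change (point) with its 95% interval (line) for the 19 histone genes tested, in 3 comparisons. Filled points have an edgeR adjusted p below 0.05. Under lefamulin H1f0 is to the right of 0 and H3f3a, H2ax and H2az2 to the left, and under tiamulin 8 genes are to the left.

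Tiamulin against lefamulin tested the difference between the related drugs at the same mass concentration and time. Of the 19 histone genes, 4 were lower under tiamulin (H1f0, H2bc21, H2bc4 and H1f3), against 2.05% of all genes tested, and none was higher by edgeR or DESeq2, against 2.85%. At an unadjusted p below 0.05 there were 7 of the 19, against 3132 of all 14510 genes tested. H2bc4 also passed the threshold of an absolute log2 fold change above 1, which 0.227% of all genes passed. H1f3 passed it too, but was tested because of its counts in the other groups, and nothing is read from that or from its place among the 4. H2bc4 was lower by 1.13 on the log2 scale (log2 fold change -1.13, SE 0.210, edgeR adjusted p = 0.00759), with the call lost only without lefamulin 3 (0.0545). H2bc21 had a log2 fold change of -0.45 (SE 0.118, edgeR adjusted p = 0.0430), H1f3 of -1.76 (SE 0.467, adjusted p = 0.0463) and H1f0 of -0.20 (SE 0.055, adjusted p = 0.0480). These 3 were close to the threshold. On leaving out each library the call of H1f0 held only without tiamulin 2 (adjusted p of at most 0.183), that of H2bc21 only without tiamulin 2 or 3 (at most 0.185) and that of H1f3 in 1 of 9 fits. The count of histone genes called was 0 without lefamulin 3, 2 without control 2, 1 without control 1 or 3, lefamulin 1 or 2 or tiamulin 1, and 5 without tiamulin 2. With limma on log2 FPKM only H2bc4 of these was called.

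For the other variants the edgeR test of all libraries, without offsets, called no difference between the drugs. The log2 fold change of tiamulin against lefamulin was 0.12 for H2az2 (95% interval -0.075 to 0.32), -0.12 for H3f3a (95% interval -0.25 to 0.013) and -0.23 for H2ax (95% interval -0.54 to 0.076). H3f3b and H2az1 missed the threshold, with log2 fold changes of -0.23 (95% interval -0.39 to -0.082, edgeR adjusted p = 0.0727) and -0.16 (95% interval -0.26 to -0.052, edgeR adjusted p = 0.0804). Both passed without tiamulin 2 (edgeR adjusted p = 0.0268 and 0.0343), H3f3b also with GC and length offsets (0.00804) and H2az1 also with DESeq2 (0.0260). H2ax passed with those offsets and without tiamulin 2 together (0.0229). These intervals do not show that the drugs acted alike on H2az2, H3f3a or H2ax. Of the replication-dependent genes that were not called, H1f2 had a log2 fold change of -0.36 (95% interval -0.68 to -0.045, edgeR adjusted p = 0.173), with overlapping libraries, and passed without tiamulin 3 (0.0176) and without a filter on low counts (0.0115). H3c15 had -0.73 (95% interval -1.47 to 0.019), again with overlap. H2bc6 had -0.78 (95% interval -1.64 to 0.077), with every tiamulin library below every lefamulin library. The comparisons of each drug with control share the control libraries.

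Summed over the 63 replication-dependent genes, the normalised read count was 59.6, 61.9 and 63.4 CPM in control, 64.7, 59.9 and 76.5 CPM in lefamulin and 41.8, 46.3 and 58.2 CPM in tiamulin libraries. Every tiamulin sum lay below every control sum, while lefamulin and control overlapped. The ratio of means to control was 1.09 for lefamulin and 0.791 for tiamulin. H1f2 dominated the sum, and without it the ratios were 0.996 and 0.670. The 17 H2B genes together had 25.7 ± 1.70 CPM in control, 25.5 ± 2.28 CPM in lefamulin and 16.9 ± 1.10 CPM in tiamulin libraries (SD, n = 3). The 12 H4 genes together had 2.13 ± 0.409, 1.87 ± 0.712 and 1.37 ± 0.295 CPM in the same order. The 12 replication-dependent H3 genes together had 1.51 ± 0.151, 2.19 ± 0.807 and 1.62 ± 0.273 CPM, the highest mean being that of lefamulin. The 5 replication-dependent H1 genes together had 31.0 ± 1.85, 36.5 ± 5.32 and 27.9 ± 6.80 CPM, and the 17 H2A genes had 1.26 ± 0.611, 0.927 ± 0.162 and 0.927 ± 0.208 CPM.

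**Figure D4:**
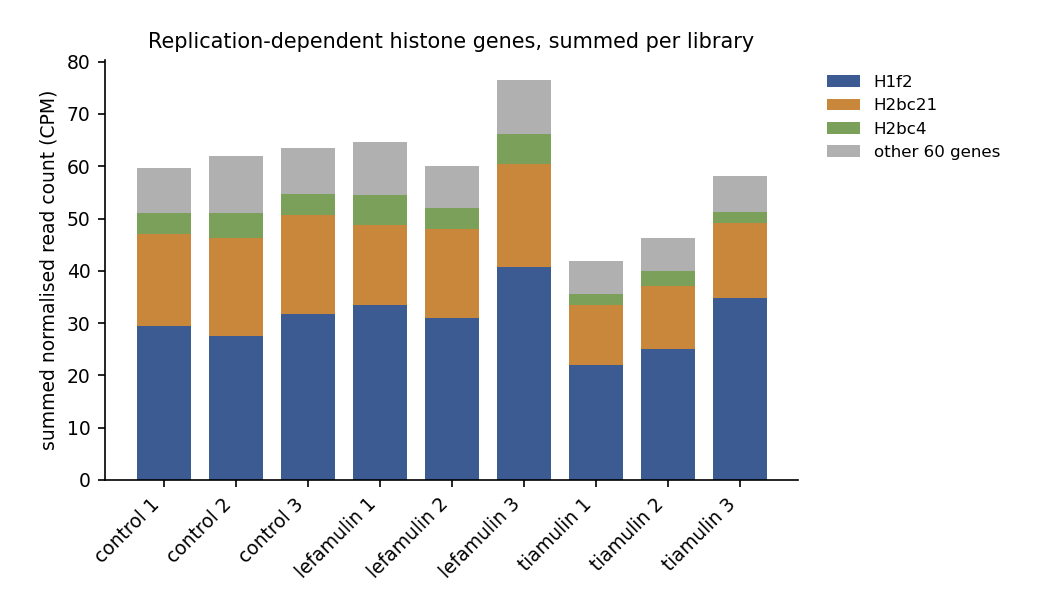
Normalised read counts (CPM) of the replication-dependent histone genes, summed per library and stacked by gene, for 9 libraries. The sum is 59.6 to 63.4 in control and 41.8 to 58.2 in tiamulin libraries, and the H1f2 part of tiamulin 3 is above that of each control.

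The genes that supply and handle histones were examined next, on lists written with earlier results of these data known. A list of 16 genes covered transcription of histone genes and processing of the 3 prime end, and all 16 were tested. Under lefamulin 2 were lower, and under tiamulin 5 were lower, of which Slbp and Srrt were called in both comparisons. Of all genes tested, 6.0% were lower under lefamulin and 7.34% under tiamulin. The median log2 fold change was -0.0092 under lefamulin and -0.12 under tiamulin. Slbp, which codes for the protein that binds the stem-loop, had 43.2, 42.7 and 43.4 CPM in control, 35.5, 36.4 and 35.7 CPM in lefamulin and 30.9, 29.4 and 31.8 CPM in tiamulin libraries. The 3 groups did not overlap, and the log2 fold changes of Slbp were -0.27 (edgeR adjusted p = 0.0227) and -0.49 (edgeR adjusted p = 0.000284). The log2 fold change of Srrt, which codes for the cap-bound processing factor ARS2, was -0.30 (edgeR adjusted p = 0.0131) and -0.39 (edgeR adjusted p = 0.00165). Under lefamulin the call of Slbp was lost without any control or lefamulin library (adjusted p of at most 0.0856), and that of Srrt without control 3 or lefamulin 2 (at most 0.0820).

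The cyclin E genes differed between the drugs. Ccne2 had 43.5, 48.5 and 48.5 CPM in control, 49.1, 54.3 and 60.7 CPM in lefamulin and 30.6, 26.9 and 31.1 CPM in tiamulin libraries. Cyclin E with CDK2 activates the histone gene coactivator NPAT at the start of S phase. Ccne2 was lower under tiamulin than under control (log2 fold change -0.67, edgeR adjusted p = 0.000225) and than under lefamulin (-0.89, edgeR adjusted p = 0.000146). Ccne1 was lower likewise, by -0.57 and -0.62 (edgeR adjusted p = 0.000449 and 0.0013), with no overlap between tiamulin and the other libraries.

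Of 27 histone chaperone and deposition genes, all tested, 1 was lower under lefamulin, where 6.0% of all genes were, and 5 were lower under tiamulin, where 7.34% were. The median log2 fold change was -0.079 and -0.14. Hjurp, the chaperone of the centromeric H3 variant, was lower under both drugs, with log2 fold changes of -0.22 (edgeR adjusted p = 0.00626) and -0.26 (edgeR adjusted p = 0.00156). Nasp, a chaperone of soluble H3 and H4, had 141, 161 and 153 CPM in control, 138, 145 and 147 CPM in lefamulin and 121, 106 and 124 CPM in tiamulin libraries. Its tiamulin values were the lowest, with a log2 fold change of -0.37 against control (edgeR adjusted p = 0.00236) and -0.30 against lefamulin (edgeR adjusted p = 0.0302). Anp32e, which removes H2A.Z from nucleosomes, had a log2 fold change of -0.41 under tiamulin (edgeR adjusted p = 0.00478), and Chaf1a, a subunit of the replication-coupled assembly factor CAF-1, of -0.24 (edgeR adjusted p = 0.0394). The call of Chaf1a was lost on leaving out each library other than control 2 or tiamulin 2 (adjusted p of at most 0.160) and with limma, and that of Nasp between the drugs without control 3, tiamulin 1 or any lefamulin library (at most 0.137) and with limma. Over both lists together, 3 of 43 genes were called under lefamulin and 10 under tiamulin. Without tiamulin library 2 the counts were 11 and 14, and with GC and length offsets they were 10 and 18. The share of all genes called in those 2 settings is not given here, so the higher counts are not read as a result about these lists.

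**Figure D5:**
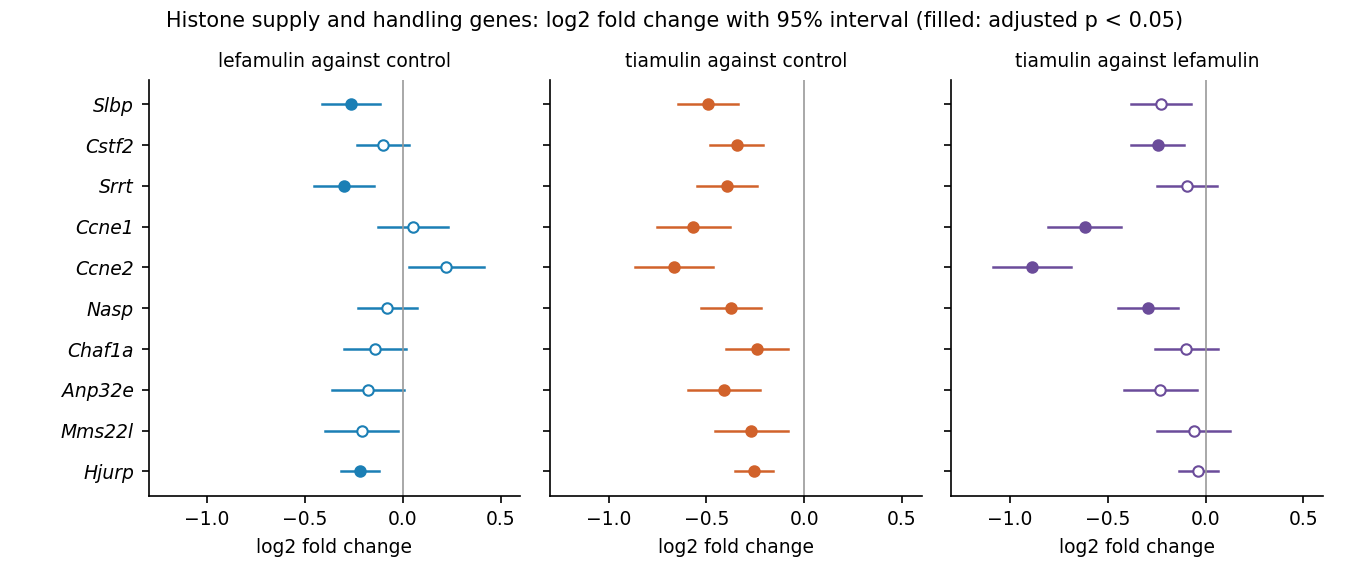
Log2 fold change (point) with its 95% interval (line) for the 10 histone supply and handling genes called in at least 1 of 3 comparisons. Filled points have an edgeR adjusted p below 0.05. All 10 are filled and left of 0 under tiamulin against control, and Slbp, Srrt and Hjurp are so under lefamulin.

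Genes of DNA synthesis in S phase are given beside the histones. Of 30, all tested, 1 was higher and 8 lower under lefamulin, with a median log2 fold change of -0.11, and 16 were lower under tiamulin, with a median of -0.23. Of all genes tested, 7.09% were higher and 6.0% lower under lefamulin, and 7.34% were lower under tiamulin. Rrm2, the inducible subunit of ribonucleotide reductase, had 101, 94.5 and 96.8 CPM in control, 89.3, 97.4 and 103 CPM in lefamulin and 60.9, 62.6 and 58.6 CPM in tiamulin libraries. Only the tiamulin values stood apart, with a log2 fold change of -0.68 against control (edgeR adjusted p = 9.34e-06) and -0.67 against lefamulin (edgeR adjusted p = 0.000117). Tyms, the thymidylate synthase gene, was lower under lefamulin (-0.26, edgeR adjusted p = 0.0447), under tiamulin (-0.66, edgeR adjusted p = 8.09e-05) and between the drugs (-0.40, edgeR adjusted p = 0.0158). Rrm1, the large subunit of the reductase, had log2 fold changes of -0.12 under lefamulin, which did not pass (edgeR adjusted p = 0.243), of -0.37 under tiamulin (edgeR adjusted p = 0.00125) and of -0.25 between the drugs (edgeR adjusted p = 0.0437). Tk1, which codes for thymidine kinase, had log2 fold changes of -0.21 (edgeR adjusted p = 0.0432) and -0.43 (edgeR adjusted p = 0.00041). The lefamulin calls of Tyms and Tk1 were lost without any control or lefamulin library or tiamulin 1, and for Tyms also tiamulin 3 (adjusted p of at most 0.158 and 0.146). Between the drugs, the call of Tyms was lost without any lefamulin library (at most 0.0856) and that of Rrm1 on leaving out each library other than tiamulin 2 or 3 (at most 0.173).

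Other RNAs that end without a poly(A) tail were examined as a further group of this kind. Of 15 gene identifiers, only Rn7sk, the RNA that holds the elongation factor P-TEFb inactive, was tested. Its counts were 13, 38 and 21 in control, 56, 73 and 52 in lefamulin and 60, 36 and 35 in tiamulin libraries. All lefamulin values lay above the controls (log2 fold change 1.43, edgeR adjusted p = 0.0115, lost without control 1 or 3 or lefamulin 2, at most 0.0631), and tiamulin overlapped with control (0.94, edgeR adjusted p = 0.0797). The other 14 identifiers had too few counts to be tested. Among the germ-line linker histones only H1f8, of the oocyte, was tested, with counts of 7, 5 and 7 in control, 14, 5 and 18 in lefamulin and 14, 15 and 15 in tiamulin libraries. The tiamulin values lay above the controls, and the log2 fold change of 1.28 (SE 0.479, edgeR adjusted p = 0.0851) did not pass. H1f8 entered the test through the drug libraries, where it is higher, and nothing is read from its p-value.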

How the data were processed

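RNA-Seq counts and FPKM of 9 Hepa1-6 libraries in 3 groups were analysed, and the groups were taken from the labels. Per gene, the authors deposited raw read counts and FPKM values. FPKM equalled the count over gene length and a library size of 0.993 to 1.01 times the total count. The submitters' processing notes name CASAVA 1.8, fastp, HISAT2 2.0.5, featureCounts 1.5.0-p3, DESeq2 1.20.0 and mm10. The deposited positions of 0 of 76 histone genes, and of 1487 of 52125 genes, matched GENCODE M21 on GRCm38, so that their build is unclear and they are not printed, and sequences were read from GRCm38 by gene identifier. Strand use and the handling of reads with several matches are not given in the sources used here.

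Counts were filtered with filterByExpr, scaled with TMM and compared in edgeR 4.0.16 under R 4.3.3 (robust quasi-likelihood fit of 9 libraries, group as the only term, Benjamini-Hochberg adjustment). Genes with an adjusted p below 0.05 were called, and an absolute log2 fold change above 1 was read as a further threshold. The procedure was tested on simulated data. Alternatives were DESeq2 1.42.0 and its size factors, other filters, 2 groups alone, a replicate block, GC content and length offsets, limma 3.58.1 on log2 FPKM with a pseudocount of 1 or 0.1, and leaving out each library. Offsets without tiamulin 2 were added after seeing the data.

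Members and gene lists were chosen with earlier results of these data known, so no p-value is given for a list. Values by library are given for histone genes called in any comparison, the 5 replication-dependent genes with the most counts and the variants tested, though not every log2 fold change. From the pathway lists, values are given for up to 4 called genes of lowest adjusted p. Depth was 15568887 to 18008105 counts per library, and counting error dominates for genes with few counts. The symbol H2ac14 belongs to a pseudogene and was left out. Replicates differed by more than sampling noise (chi-square per degree of freedom of at least 2.88).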

Additional observations from a re-analysis of the deposited data

Results flagged for a closer look

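The direct test of tiamulin against lefamulin called 4 histone genes, of which H2bc4 alone was also called with 2 groups alone and with limma. H1f0 had a log2 fold change of -0.20, with 267, 295 and 282 CPM in tiamulin and 337, 312 and 323 CPM in lefamulin libraries, and was called in 1 of 9 fits that each left out a library. H2bc21 had a log2 fold change of -0.45, lower in 3 of 3 tiamulin libraries than in every lefamulin library, and was called in 2 of 9 such fits. H2bc4 had a log2 fold change of -1.13, again lower in 3 of 3 libraries. H1f3 had a log2 fold change of -1.76, with 4, 4 and 5 counts in tiamulin and 14, 15 and 15 in lefamulin libraries, but it passed the filter on low counts through the groups where it is high, and its call was lost on leaving out each of 8 of 9 libraries.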

How the results depend on the processing

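Of the replication-dependent genes, 53 of 63 had too few counts to be tested. The samples share only a replicate number: the correlation of deviations between same-numbered libraries was over 0.1 in 0 of 9 pairs and lay between -0.425 and 0.042. With a replicate block, 3, 6 and 1 histone genes were called for lefamulin against control, tiamulin against control and tiamulin against lefamulin, in place of 4, 8 and 4, and 2, 8 and 2 supply and handling genes in place of 3, 10 and 4. The block did not call H2ax under lefamulin against control, nor H2az1 and H1f3 under tiamulin against control. Where a value moved, the cause was not tested beyond what the alternative itself changes. The share of all genes called is given only for the edgeR fit of all libraries without block or offsets. A count of genes called under an alternative therefore cannot be set against all genes there, and nothing is read from its rise or fall.

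Under lefamulin against control, 7 histone genes were called with GC content and length offsets and 8 when tiamulin 2 was also left out, a setting chosen after seeing the data, and leaving out each library gave 1 to 6. For the supply and handling genes in this comparison the count was 11 with 2 groups alone, 10 with offsets, 10 with offsets and the replicate block and 13 with offsets without tiamulin 2, and leaving out each library gave 1 to 11. For tiamulin against control, leaving out each library gave 5 to 8 histone genes, and the supply and handling count was 18 with offsets, 18 with offsets and the block and 17 with offsets without tiamulin 2. For tiamulin against lefamulin, 1 histone gene was called with 2 groups alone, with the block and with limma at either pseudocount, and leaving out each library gave 0 to 5. The supply and handling count there was 7 without a filter, 2 with 2 groups alone, 9 with offsets, 7 with offsets and the block, 2 with limma at either pseudocount, 7 with offsets without tiamulin 2, and 2 to 5 on leaving out each library.

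The median log2 fold change of replication-dependent genes under tiamulin against control was -0.33 with at least 10 counts in every library, -0.35 with 2 groups alone, -0.38 and -0.54 with limma on log2(FPKM + 1) and log2(FPKM + 0.1), -0.56 with offsets without tiamulin 2 and -0.68 to -0.51 on leaving out each library. For tiamulin against lefamulin it was -0.59 with at least 10 counts, -0.38 with offsets and the block, -0.38 with limma on log2(FPKM + 1) and -0.74 to -0.40 on leaving out each library. The number of genes behind this median changes with the filter and the tool.

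Signs turned for values that were not called. H1f0 under tiamulin against control was -0.019 with offsets without tiamulin 2 and -0.011 to 0.059 on leaving out each library. H1f10 under tiamulin against lefamulin was -0.17 with offsets without tiamulin 2 and -0.14 without tiamulin 2 alone, with 0.36 at the other end on leaving out each library. H1f2 under tiamulin against control was -0.33 to 0.017 on leaving out each library. H2bc6 under lefamulin against control was -0.018 with offsets, -0.019 with offsets without tiamulin 2, and -0.24 to 0.29 on leaving out each library, with -0.09 without lefamulin 2. Macroh2a1 under tiamulin against lefamulin was -0.0095 with offsets without tiamulin 2 and -0.017 to 0.084 on leaving out each library.

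Signs also turned on leaving out some single library for H2ac6, H2bc9, H4c9, H1f8 and H1f4, none of them called. Of the other comparisons of the 14 named histone genes with an alternative, 705 stayed on the same side of the threshold, 67 lost the call and 33 gained it. DESeq2 called 5, 7 and 5 histone genes in the 3 comparisons, and its size factors in edgeR called 4, 8 and 4.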
